A study of Macaca fascicularis with 8 samples.

Results

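The regions described here are stretches of open chromatin that were called as peaks in the colon, the lung and the spleen of cynomolgus monkeys, and in none of heart, kidney, liver and uterus. They were selected on the peak calls themselves. The peak lists of 7 libraries, 1 per organ with the male liver standing for the liver, were merged wherever peaks overlapped by at least 1 bp, and a region was kept when it held a peak of colon, lung and spleen and no peak of the other 4 organs. This gave 3024 members out of 245443 regions, or 1.23%. The pattern of organs is therefore the choice and not a finding, and it rests on a peak not being called in 4 libraries, which differs from the chromatin being closed there.

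The data were single-cell ATAC-seq libraries, in which a transposase cuts accessible DNA and the fragments of a nucleus are tagged with a common barcode. The series comprised 8 libraries of normal tissue from adult cynomolgus monkeys (Macaca fascicularis). Colon, heart, lung, uterus and a first liver library were labelled female, and kidney, spleen and a second liver library male. Each sex was a single animal. The organ cannot be told apart from the animal and the library, and no test between organs was possible. Intervals are 95% intervals that cover counting error only. Of the organs with a peak, colon and lung came from the female and spleen from the male, and the 4 organs without a peak came from both, as the rule fixed.

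Chromatin becomes accessible where nucleosomes are displaced, mostly at promoters and enhancers. Promoters tend to be open in many tissues, whereas enhancers are open in few cell types, so that the set of open regions of a cell carries the mark of its type. Spleen is a lymphoid organ made largely of immune cells, and the walls of the colon and the airways hold resident immune cells beside epithelium, vessels and stroma. No source used here names the genome build of these ATAC peaks, and positions below are as deposited. No gene, promoter, sequence motif or cell type was assigned to the members or to clusters of cells.

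At a minimum of 1000 counts in peaks per barcode, 12404 colon cells, 13117 lung cells, 20019 spleen cells and 728 cells of the female liver were kept, the last out of 2110 barcodes. The median count per cell was 7446 in colon, 6595 in lung, 2276 in spleen and 2040.5 in the female liver. Colon and lung had 224 barcodes in common, colon and spleen 362 and lung and spleen 379, the largest number of any of the 28 pairs of libraries, among which the smallest was 17. What these shared barcodes contribute was not tested.

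Among the regions found in exactly 3 organs, colon with lung and spleen was the second most common of 35 possible combinations. It made up 14.7% of the 20578 such regions, after colon with kidney and liver, which had 3081, and against a median of 259 over the combinations. A further way to see the members is from the 40376 regions that had a peak in all of colon, lung and spleen, whatever the other organs: in 7.49% of them no other organ had a peak. Without the male liver, the rule gave 5704 regions in place of 3024, and with the female liver also required to lack a peak it gave 348, so the count depends on the liver libraries that enter the rule.

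The members were wide. Their widths ran from 167 to 7053 bp with a median of 814 bp and quartiles of 575 and 1224.2 bp, against a median of 520 bp over all regions and 743 bp over the regions of 3 organs. A merged region grows with the number of lists that enter it, so the second comparison is the closer one. In 2852 members (94.3%) each of the 3 libraries had a single peak, and in 97.0% of these a common core lay within all of the peaks, which covered a median of 35.8% of the region. Within the members the colon peak was widest, with a median of 681 bp against 553 bp over all colon peaks, and the spleen peak measured 552 bp against 470 bp. The lung peak was narrow, with 363 bp against 541 bp over all lung peaks. The members thus combined wider than usual peaks of colon and spleen with a narrower than usual peak of lung.

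The median distance from a member to a region with a peak in all 7 organs was 24.3 kb, and 27.2% of the members had one within 10 kb. This was nearer than for regions of colon, kidney and liver (34.3 kb and 20.2%), of colon and spleen only (35.6 kb and 20.2%) and of colon only (41.7 kb and 18.4%). It was close to the values for lung and spleen only (25.1 kb and 26.2%), colon, kidney and spleen (26.3 kb and 27.1%) and heart, lung and spleen (26.8 kb and 26.9%). Regions of colon, lung and uterus were nearer (21.2 kb and 32.9%), so the distance was not particular to the members. The median distance to the next member was 88.2 kb, and 380 members (12.6%) had another within 10 kb. At the edge of the rule, the peaks of the member on chromosome 1 from 29716636 to 29717404 met by 1 bp, and the member on chromosome 1 from 39807513 to 39808397 had a heart peak 10 bp away. A region on chromosome 17, from 6543337 to 6545005, missed the rule by 1 bp of overlap with a heart peak. Within 1 kb of a peak of heart, kidney, male liver or uterus lay 482 members (15.9%), and the median distance to such a peak was 3.14 kb.

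Relative to all regions, the members were most frequent on chromosome 19, with 145 members or 22.0 per 1000 regions, followed by chromosome X with 16.9 and chromosome 16 with 16.1 per 1000. Chromosome 18 had the fewest, 8.17 per 1000. The stretches were windows of 100 kb counted by the midpoints of members, so that the outermost members may reach past the window. The densest was on chromosome X, from 11642311 to 11738370, where 7 of 23 regions were members and 1 was open in all 7 organs. A stretch on chromosome 3, from 66305608 to 66406725, held 6 members among 21 regions, none of which was open in all 7 organs. On chromosome 20, between 2996528 and 3033931, 6 of 25 regions were members. The stretches on chromosome 1 (200973348 to 201033074) and chromosome 7 (20949837 to 21016183) held 5 members each.

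The female liver library took no part in the choice of the members and gives a reading of where else they are open. It was labelled female like colon and lung, and the liver of the rule was the male one, so that the animal and the library cannot be told apart in this comparison. Of the 3024 members, 2676 overlapped a peak of the female liver, or 88.5% (exact binomial interval 87.3% to 89.6%), although every one of them lacked a peak in the male liver. Over all 245443 regions the share was 42.6%, and over all regions of 3 organs 65.2%. Among the 20 combinations of 3 organs without the male liver, the members had the highest share. The next was colon with heart and spleen at 63.0% of 757 regions, and the lowest was colon with kidney and uterus at 14.2%. Pairs of the same organs gave 62.2% for colon and spleen only, 68.7% for lung and spleen only and 24.1% for colon and lung only. Combinations with spleen thus tended to have more of their regions in the female liver than those without it, as the plot of overlap by combination shows.

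**Figure D1:**
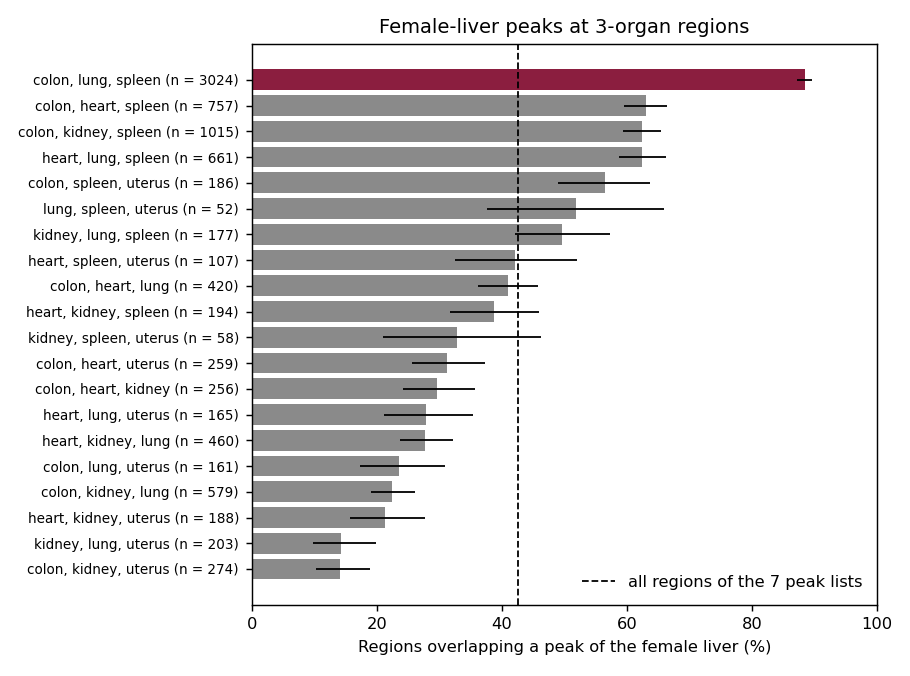
Share of regions that overlapped a peak of the female liver (x axis, percent) for the 20 combinations of 3 organs that exclude the male liver (y axis, with the number of regions). Bars are shares, whiskers are exact 95% binomial intervals and the dashed line is the 42.6% over all regions; the regions of colon, lung and spleen, in red, stand at 88.5%, above the 63.0% of the next combination.

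The peak list of the female liver was the longest of the series, with many peaks at low counts, and this bears on the overlap. With only those of its peaks that had a count in the kept cells, the share of members was 85.9%. Members with a peak in the female liver were also the more accessible ones in colon, where their median level was 5.63 counts per 1000000 counts in peaks (CPM) against 2.52 CPM for the 348 members without. In spleen the corresponding medians were 6.32 and 2.57 CPM. In lung they were alike, 2.55 and 2.58 CPM.

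The level of the members differed between the organs. In colon the members took up 2.43% of all counts, in spleen 2.46% and in the female liver 2.37%, but in lung 1.04%, although they made up 2.81%, 3.46%, 1.65% and 3.71% of the respective peaks. The median member had 5.14 CPM in colon and 5.60 CPM in spleen, above the 3.18 and 3.71 CPM of the median region of each library. In lung it had 2.56 CPM, below the library's 4.83 CPM, which put the median member at percentile 27.1 among the lung regions, against 63.8 in colon and 62.3 in spleen. Across the 3024 members, Spearman's rho of the levels was 0.66 between colon and spleen, 0.05 between colon and lung and 0.04 between lung and spleen. The levels share the width of the region, with which the colon level had a rho of 0.76, so the first value cannot be read as a shared level of accessibility alone.

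The 10 members with the highest minimum level over the 3 organs were all also peaks of the female liver, and they differed in their balance between organs. The first, on chromosome 10 from 11510394 to 11514771, had 35.0 CPM in colon (3877 counts), 19.3 CPM in lung (1980 counts) and 23.4 CPM in spleen (1398 counts). A region on chromosome X, from 11734856 to 11738370, at the end of the densest stretch, had 40.8, 13.8 and 33.7 CPM. A region on chromosome 19, from 41418517 to 41421006, had 28.7, 15.1 and 30.8 CPM. The region on chromosome 9 from 12340467 to 12342133 was the most even, with 14.2, 14.3 and 17.1 CPM. The other 6 had between 13.0 and 29.9 CPM in colon, between 12.8 and 18.8 CPM in lung and between 12.9 and 29.6 CPM in spleen. Their own widths ran from 1667 to 4378 bp, so all of these lay in the wide part of the members.

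Within colon and lung the members were not used evenly by the cells. The share of a cell's counts that fell in members had 2 separate modes in colon, lung and the female liver and a single mode in spleen. A value of 1.5%, placed between the modes after the distributions had been seen, was exceeded by 64.8% of the colon cells (8036), 19.2% of the lung cells (2516), 63.2% of the female liver cells (460) and 91.9% of the spleen cells (18390). Between 3.30% (female liver) and 10.4% (spleen) of the cells lay within 0.25 percentage points of that value. The low mean level in lung therefore went with few cells above the value. Cells above it had a count in a median of 124 members in colon, 103 in lung, 31 in spleen and 39.5 in the female liver, and cells below in 21, 23, 14 and 2. Depth moved with this in part: the median count per cell was 9001.5 above and 4923.5 below in colon, 7669 and 6422 in lung, 2285.5 and 2203 in spleen and 2322.5 and 1718 in the female liver.

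**Figure D2:**
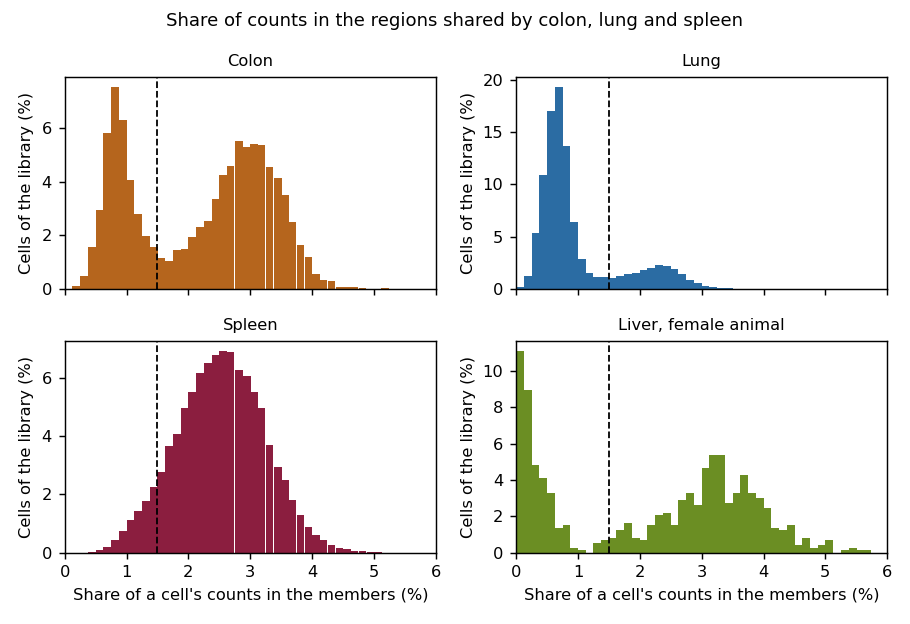
Distribution over cells (y axis, percent of the library's cells) of the share of each cell's counts that lay in the members (x axis, percent), for the 3 organs of the rule and the female liver. The dashed line marks 1.5%, which 64.8% of the colon, 19.2% of the lung, 91.9% of the spleen and 63.2% of the female liver cells exceeded.

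The share was a property that members on different chromosomes had in common. Computed once from the members on the odd-numbered chromosomes and once from those on all others, it correlated across cells with r = 0.87 in colon, 0.85 in lung, 0.82 in the female liver and 0.37 in spleen. To measure members in cells that they had not chosen, cells were ranked on the members of the odd-numbered chromosomes and the members of all others were counted, and the reverse. In cells above the value of 1.5%, held-out members were 3.29-fold higher than in the other cells in colon (3.27 to 3.31), 3.25-fold in lung (3.23 to 3.27), 1.43-fold in spleen (1.42 to 1.45) and 8.08-fold in the female liver (7.62 to 8.56). Taking the richest 10% of the cells gave 1.52-fold in colon, 2.90-fold in lung and 1.22-fold in spleen, since in colon and spleen the remaining 90% then still held most of the cells above 1.5%.

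Most members took part in this in colon and lung. Of the 2945 members with at least 50 counts in colon, 2318 (78.7%) were at least 2-fold higher in the cells above 1.5%, against 35.1% over all colon regions. In lung these were 1950 of 2712 (71.9%), against 19.5% over all lung regions, and the median member was 6.83-fold higher, with quartiles of 1.54 and 14.6. In colon the median was 5.39, with quartiles of 2.41 and 8.91. In spleen 515 of 2935 members (17.5%) passed 2-fold, against 10.1% of all regions, and the median was 1.43. With the richest 10% of cells, the members passing 2-fold were 727 of 2945 (24.7%) in colon against 7.49% of all regions, and 1868 of 2712 (68.9%) in lung against 19.0%. In spleen they were 91 of 2935 (3.10%) against 2.76%, a share near that of all regions, so in the spleen library the richest cells did not set the members apart at this threshold.

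Members at least 2-fold higher in the rich cells overlapped between colon and lung only a little beyond the shares of each organ. Those at 0.5-fold or less overlapped more clearly beyond them. The same overlap over all regions counted in both libraries was not computed, so whether it is particular to the members was not tested. Of the 2641 members with enough counts in both libraries, 1623 were at least 2-fold higher in the rich cells of both colon and lung, which was 78.4% of those that passed in colon and 85.2% of those that passed in lung. Over all 2641 members, 72.1% passed in lung and 78.3% in colon, so both shares lay a little above the overall ones. A minority ran the other way. In lung 317 members (11.7%) were at 0.5-fold or less in the rich cells, against 43.6% of all lung regions, and in colon 250 (8.49%), against 37.4% of all colon regions. Members were thus at 0.5-fold or less more rarely than regions in general. Of the members counted in both organs, 234 were at 0.5-fold or less in colon (8.86%) and 309 in lung (11.7%), and 85 were so in both, which was 36.3% of the colon and 27.5% of the lung list. Members at 0.5-fold or less were also less often seen in the female liver. Of the lung members at 0.5-fold or less, 60.3% (54.6% to 65.7%) overlapped a peak of the female liver, against 94.1% (93.0% to 95.1%) of those at least 2-fold higher. In colon the shares were 62.0% and 92.2%, and in spleen 51.9% of 77 members and 90.9% of 515. These shares were not computed over all regions of the same folds, so whether the difference is particular to the members was not tested.

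Single members at the ends of this range show what the sum over members hides. These folds are those of the richest 10% of cells. In this measure the median member stood at 4.08-fold in lung, 1.54-fold in colon and 1.19-fold in spleen, so the size of a fold compares only roughly between organs. On chromosome 8, the member from 117299813 to 117300588 was 14.1-fold higher in the rich lung cells but stood at 0.922-fold in colon and 1.44-fold in spleen. The member on chromosome 15 from 41059568 to 41060086 was the highest in colon at 4.89-fold, with 215 counts there. By contrast, the member on chromosome 5 from 140098632 to 140099207 had 480 counts in colon and none of them in the rich cells, and it was at 0.0789-fold in lung and 0.403-fold in spleen. It had no peak in the female liver. The member on chromosome 6 from 111676543 to 111677852 was divided between organs: with 1777 counts in lung it stood at 0.0234-fold in the rich lung cells, but at 3.18-fold in the rich colon cells. The last member was high in the member-rich cells of one organ and low in those of another. The strongest member, on chromosome 10 from 11510394, stood at 0.117-fold in lung, 1.08-fold in colon and 1.30-fold in spleen.

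Regions of other combinations were measured in the same cells, which had been chosen on members of the other chromosomes. In colon, regions of colon and spleen only were 4.63-fold higher in the cells above 1.5% and regions of colon, liver, lung and spleen 3.88-fold, near or above the members. Regions of colon only stood at 0.404-fold, of colon and lung only at 0.225-fold and of colon, kidney and liver at 0.205-fold. In lung, regions of lung and spleen only were 2.98-fold higher and those of colon, liver, lung and spleen 5.67-fold, whereas regions of lung only stood at 0.333-fold, of colon and lung only at 0.419-fold and of heart and lung only at 0.237-fold. Regions of all 7 organs were at 1.05-fold in both. Among the combinations of up to 4 organs measured here, those with spleen were high in the rich cells of colon and lung and those without it were low. With the richest 10% of cells, the regions of colon, heart, lung and spleen were 1.23-fold higher in lung, against 2.90-fold for the members. In spleen itself regions of colon and spleen only were 1.43-fold higher and those of colon, liver, lung and spleen 1.48-fold, like the members' 1.43-fold, whereas regions of spleen only stood at 0.680-fold and of lung and spleen only at 0.875-fold. The behaviour was therefore not particular to the members, which shared it with colon and spleen only in colon and spleen, with lung and spleen only in lung, and with colon, liver, lung and spleen in all of these.

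**Figure D3:**
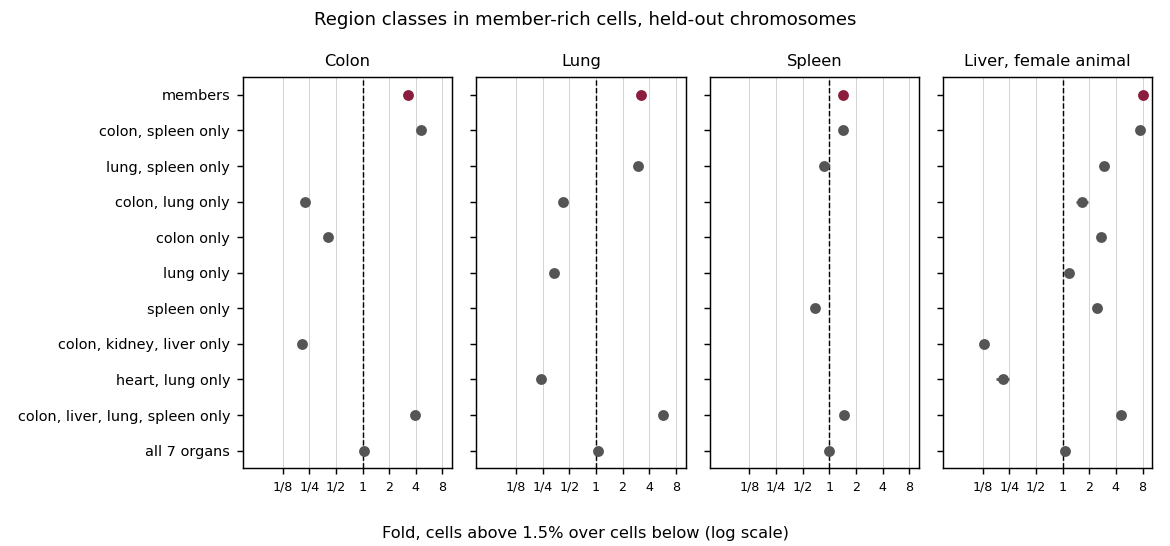
Fold of the summed counts of a class of regions in cells above 1.5% over the other cells of the library (x axis, log scale), for the members in red and other combinations of organs in grey (y axis), measured on chromosomes not used to rank the cells. Each class is shown in the organs of its combination and in the female liver, and whiskers are 95% intervals; members stood at 3.29 in colon, 3.25 in lung, 1.43 in spleen and 8.08 in the female liver, while regions of all 7 organs lay between 0.980 and 1.06.

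To see which cells carried the members, the cells of each library were clustered on regions open in all 7 organs alone, so that no member entered the clustering. Clusters with at least 1% of the cells were counted. In colon, 17 clusters held between 0.954% and 3.47% of their counts in members, and they fell into a high and a low set with 1 cluster between. The high set of clusters 1, 3, 5, 6, 7, 9, 11, 12 and 17 ran from 2.43% to 3.47% and cluster 14 had 1.85%, whereas the other 7 lay between 0.954% and 1.15%. In lung, 4 of 13 clusters were high, with 2.31% in cluster 4 (1200 cells), 1.88% in cluster 6 (995 cells), 2.14% in cluster 11 (469 cells) and 2.13% in cluster 13 (182 cells). The remaining 9 lung clusters had between 0.453% and 0.742%. The 8 spleen clusters lay close together, from 1.77% to 2.90%. In the female liver, clusters 1, 3 and 5 had 3.40%, 2.90% and 3.26%, and clusters 2 and 4 had 0.186% and 0.567%.

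**Figure D4:**
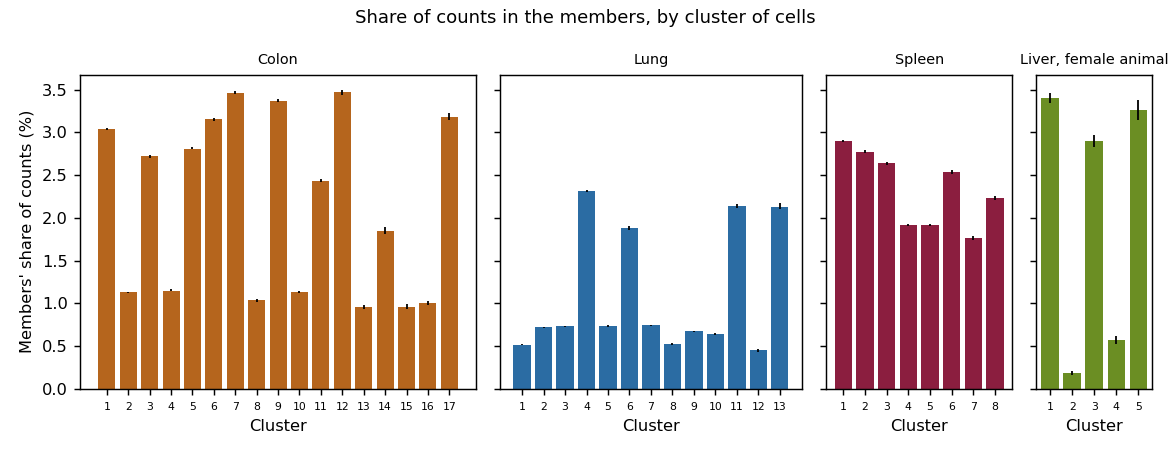
Share of counts in the members (y axis, percent) for each cluster of cells (x axis) of colon, lung, spleen and the female liver, with clusters built from regions open in all 7 organs and numbered by size within a library. Bars are the shares and whiskers exact 95% Poisson intervals; the highest cluster exceeded the lowest 3.64-fold in colon, 5.10-fold in lung and 1.64-fold in spleen.

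Windows around EGFL7, a gene of endothelial cells, and JCHAIN, which encodes the joining chain of secreted antibodies, gave a reading of the clusters that is nearly free of members. No member lay in the EGFL7 window and 1 of 25 regions in the JCHAIN window was a member. In lung, the clusters with the highest EGFL7 level, 1814.4 CPM in cluster 10 and 1159.6 CPM in cluster 9, had 0.646% and 0.672% of their counts in members. In colon, clusters 15 and 16 had the highest EGFL7 level, 469.9 and 548.1 CPM, and 0.959% and 1.01% in members. In the female liver this was cluster 4, with 843.3 CPM and 0.567%. Spleen differed: cluster 4 had its highest EGFL7 level, 496.2 CPM, and 1.92% in members, the same share as cluster 5 with 120.0 CPM. The EGFL7 level did not order the other lung clusters by members. Lung clusters 4 and 11, high in members, had 294.3 and 291.2 CPM. These values lay between the 101.0 CPM of cluster 2 and the 446.4 CPM of cluster 7, both low in members. JCHAIN divided the high colon clusters: it was between 294.3 and 363.5 CPM in clusters 1, 7, 9, 11 and 12, and between 131.2 and 168.2 CPM in clusters 3, 5 and 6, with 213.5 CPM in cluster 17. These windows hold other regions as well, and no cluster was named from them. The member in the JCHAIN window, on chromosome 5 from 63614812 to 63616888, had 14.5 CPM in colon, 1.84 CPM in lung and 2.15 CPM in spleen.

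The members did not act as a single block. Each cluster of colon, lung and the female liver was matched to the spleen cluster with the most similar profile over regions that are not members, and the members' profiles were then compared for the same pair. A profile is the log2 level of each region in a cluster relative to all clusters of the library. Across 2659 members, colon cluster 6 and spleen cluster 2 had r = 0.75, colon clusters 9 and 17 had 0.66 with spleen cluster 1 and 0.68 with spleen cluster 3. Across 2290 members, lung cluster 6 had 0.75 with spleen cluster 2, lung clusters 4 and 11 had 0.62 each with spleen cluster 3, and lung cluster 13 had 0.51 with spleen cluster 1. In the female liver, over 848 members, the values for clusters 1, 3 and 5 were 0.81, 0.73 and 0.57 with spleen clusters 2, 3 and 1. Clusters low in members gave values such as 0.04 for lung cluster 7, 0.18 for colon cluster 2 and 0.33 for lung cluster 1. Colon cluster 11, which was high in members, had 0.10 with spleen cluster 3, below several of these low clusters. The pairs were chosen on the regions that are not members. For the high clusters other than colon cluster 11, these regions gave values of the same order. They were 0.66, 0.65 and 0.62 for colon clusters 6, 9 and 17, and 0.70, 0.70, 0.69 and 0.60 for lung clusters 6, 4, 11 and 13. In the female liver they were 0.81, 0.77 and 0.54 for clusters 1, 3 and 5. For the low clusters named above they were higher than those of the members, with 0.23 for lung cluster 7, 0.29 for colon cluster 2 and 0.54 for lung cluster 1. These are descriptions across regions of 1 library each, which are not replicates. Regions in general came close to the members here, as far as regions with at least 100 counts in both libraries and outside the 7-organ class were tested: the cluster with the highest level of a member was matched between colon and spleen for 54.3% of the members, against 49.7% of the regions tested, and between lung and spleen for 54.8% against 51.7%.

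**Figure D5:**
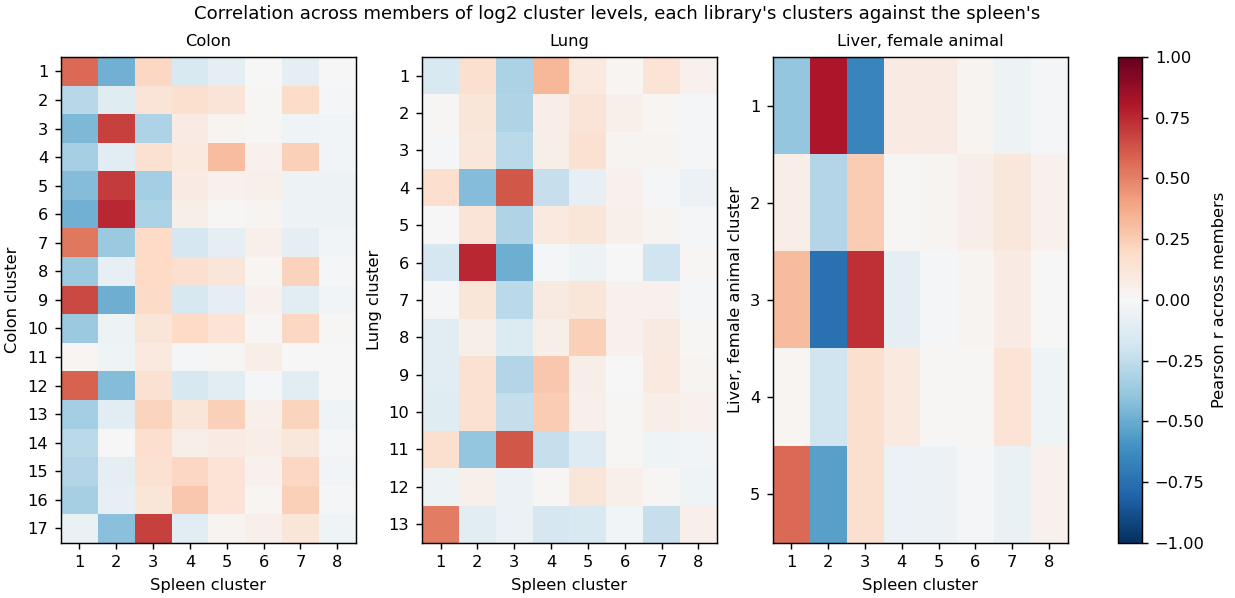
Pearson correlation across members (colour) between the log2 relative level in each cluster of colon, lung or the female liver (y axis) and in each spleen cluster (x axis). Spleen clusters 1, 2 and 3 each have a strongly red counterpart in every library, with r up to 0.75 in colon and lung and 0.81 in the female liver.

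Sorted by the spleen cluster in which they were highest, 1901 of the 2760 members with at least 100 spleen counts were at least 1.5-fold above the mean of the spleen clusters, and 859 were not. This was 68.9%, near the 65.1% of all spleen regions with as many counts. Spleen clusters 1, 2 and 3 took 370, 561 and 671 of them, and the other 5 clusters between 10 and 130. As a share of the members tested these were 13.4%, 20.3% and 24.3%, against 8.00%, 8.64% and 14.5% of all spleen regions tested. This sorting used spleen alone, but the clusters of the other libraries had been matched by the similarity of their profiles to those of spleen. Some rise in the matched clusters was thus built into the matching. Regions that are not members were not sorted in this way, so the folds below describe the members without setting them apart from other regions. The 370 members of spleen cluster 1 were 4.54-fold higher in the matched colon clusters 1, 7, 9 and 12 than in the other colon clusters, where the other members were 1.34-fold higher. They were 4.68-fold higher in lung cluster 13, with 1.90-fold for the other members, and 4.25-fold in female liver cluster 5, with 1.18-fold. The 561 members of spleen cluster 2 were 4.24-fold higher in colon clusters 3, 5 and 6, 6.16-fold in lung cluster 6 and 9.37-fold in female liver cluster 1, where the other members stood at 0.785, 1.22 and 1.05. The 671 members of spleen cluster 3 were 9.86-fold higher in lung clusters 4 and 11 and 6.46-fold in female liver cluster 3, with 2.13-fold and 0.824-fold for the other members, but only 1.54-fold in colon clusters 11 and 17, where the other members stood at 1-fold. Of these, colon cluster 11 was matched weakly, with r = 0.13 over the regions that are not members. The smaller group of spleen cluster 4, 79 members, was 2.09-fold higher in colon clusters 15 and 16 and 2.39-fold in lung clusters 1, 9 and 10, the clusters with the highest EGFL7 level, where the other members stood at 0.374 and 0.421. In female liver cluster 4, the one with the highest EGFL7 level, this group was 1.44-fold higher, with an interval of 0.995 to 2.08 that includes 1, and the other members stood at 0.20. The group of spleen cluster 5 was 2.53-fold higher in colon clusters 4 and 13 (0.417 for the other members) but 1.08-fold in lung clusters 2, 8 and 12 (0.528). That of cluster 6 stood at 0.652-fold in lung clusters 3, 5 and 7 (0.583), and that of cluster 7 at 0.619-fold in colon clusters 2, 8, 10 and 14 (0.370). Several of these clusters were matched weakly over the regions that are not members, which limits these folds. Lung clusters 2 and 12 had r = 0.26 and 0.29 with spleen cluster 5. Lung clusters 3, 5 and 7 had 0.22, 0.25 and 0.23 with spleen cluster 6. Colon clusters 2, 8, 10 and 14 had between 0.18 and 0.29 with spleen cluster 7.

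These groups differed in the female liver, which had no part in sorting them. A peak there was found for 97.9% of the members of spleen cluster 2 (96.3% to 98.9%), 93.7% of cluster 3 (91.6% to 95.5%) and 85.7% of cluster 1 (81.7% to 89.1%), but for 63.3% of cluster 4 (51.7% to 73.9%) and 63.2% of cluster 5 (49.3% to 75.6%). Clusters 6 and 7 lay near cluster 1, with 87.7% and 87.0%, and cluster 8 had 60.0% of 10 members. The 859 members under 1.5-fold had 90.5%. The same shares over all regions sorted in this way were not computed, so whether the difference is particular to the members was not tested. They also differed in weight between organs. The members of spleen cluster 1 made up 21.7% of the member counts in colon, 23.4% in spleen, 11.0% in lung and 10.5% in the female liver. Those of spleen cluster 3 made up 22.3% in lung against 11.8% in colon and 14.8% in spleen, and those of spleen cluster 2 made up 34.4% in the female liver against 21.8% in colon and 18.3% in lung. The median width was 1088.5 bp in the group of cluster 1, 898 bp in that of cluster 2 and 634 bp in that of cluster 3, and the smallest of the 8 groups was 584 bp for cluster 5. Colon and lung thus drew on the members in different proportions.

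Single members show the groups in more detail. In colon, most counts of the clusters matched to spleen cluster 3 come from the weakly matched cluster 11. This limits every colon value given for those clusters here and below. The regions on chromosome 19 from 41418517, on chromosome X from 11734856 and on chromosome 10 from 14075029 are among the 10 strongest members. The JCHAIN window was the one that the paper shows around this gene. The others were picked after their values had been seen, from members at least 2-fold above the mean of the spleen clusters. Among these, the highest minimum level over the 3 organs decided. A high value in the spleen cluster of their group was thus built into the choice. For the group of spleen cluster 2, the region on chromosome 19 had 55.9 CPM in spleen cluster 2 (49.8 to 62.5) against 29.4 and 20.2 CPM in spleen clusters 1 and 3. It had 62.3 CPM in the colon clusters matched to spleen cluster 2 (58.0 to 66.9), 69.4 CPM in the lung cluster (60.1 to 79.8) and 56.9 CPM in the female liver cluster (35.7 to 86.1). In the clusters matched to spleen cluster 3 it had 20.9 CPM in colon, 3.78 CPM in lung and 4.46 CPM in the female liver. Outside spleen, where the sorting fixed the order, the clusters matched to spleen cluster 2 had the highest value of those given in colon, lung and the female liver. The region on chromosome X from 11734856 to 11738370, in the same group, was less clear. It had 61.7 CPM in the colon clusters matched to spleen cluster 2, against 44.1 CPM in those matched to cluster 1, but in lung the clusters matched to spleen clusters 2 and 3 had 38.9 CPM (32.0 to 46.8) and 35.8 CPM (32.1 to 39.9). In the female liver it had 44.0 CPM (25.6 to 70.4) against 56.1 CPM (18.2 to 131.0), from 10 counts, in the cluster matched to spleen cluster 1, and the intervals overlapped in both libraries.

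In the group of spleen cluster 3, the region on chromosome 10 from 14075029 to 14077459 had 32.4 CPM in spleen cluster 3 (27.1 to 38.5), against 24.4 and 12.6 CPM in spleen clusters 1 and 2. It was also highest in the clusters matched to spleen cluster 3 in colon, with 47.1 CPM (39.9 to 55.2) against 22.0 and 3 CPM in those matched to spleen clusters 1 and 2. The limit of the weakly matched colon cluster 11 holds for this 47.1 CPM as well. In lung the corresponding values were 47.0 CPM (42.7 to 51.6) against 20.0 and 2.81 CPM. Not every member of the group followed this order. A member on chromosome 7 from 57838776 to 57840007, had 24.4 CPM in spleen cluster 3 (19.8 to 29.7) against 3.57 and 4.55 CPM in spleen clusters 1 and 2. In lung it had 32.3 CPM in the matched clusters (28.8 to 36.2) and 1.54 and 3.16 CPM in those matched to spleen clusters 1 and 2. In the female liver these values were 37.9, 0 and 2.59 CPM, from 17, 0 and 2 counts, and the upper bound of the interval for 0 is 41.4 CPM. Colon departed from this order, with 2.32 CPM in the clusters matched to spleen cluster 3 and 12.1 CPM (10.7 to 13.6) in those matched to spleen cluster 1. Most counts of the colon clusters matched to spleen cluster 3 come from the weakly matched cluster 11, and the 2.32 CPM rests on 15 counts. A member on chromosome 2, from 152777597 to 152778624, departed from it in colon, lung and the female liver. It had 30.6 CPM in spleen cluster 3, but in the clusters matched to spleen cluster 1 it had 30.4 CPM in colon, 41.6 CPM in lung and 89.8 CPM in the female liver, against 20.4, 32.5 and 22.3 CPM in those matched to spleen cluster 3. The intervals overlapped in lung (27.4 to 60.5 and 28.9 to 36.4) and in the female liver (38.8 to 177.0 and 7.23 to 52.0).

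For the group of spleen cluster 1, the member on chromosome 19 from 16346180 to 16346888 had 18.7 CPM in spleen cluster 1 (15.6 to 22.1) against 5.27 and 6.04 CPM in clusters 2 and 3. In colon it had 12.3 CPM in the matched clusters (10.9 to 13.8) against 0.329 and 0.309 CPM in those matched to spleen clusters 2 and 3. The colon clusters matched to spleen cluster 4 had 7.29 CPM (3.34 to 13.8), from 18 counts, with an interval that overlaps the first. In lung it had 10.8 CPM in cluster 13, from 14 counts, but also 8.36 CPM in the clusters matched to none of spleen clusters 1 to 4. The member in the JCHAIN window, of the same group, ran the other way in colon. It had 39.4 CPM (32.9 to 46.9) in the clusters matched to spleen cluster 3. In those matched to spleen cluster 1 it had 26.3 CPM (24.2 to 28.6). The limit of the weakly matched colon cluster 11 holds for this 39.4 CPM as well. The member's place in the group is uncertain too, as its level in spleen cluster 1 rests on 49 counts. The intervals of spleen clusters 1 and 2 overlapped (2.26 to 5.19 and 1.53 to 4.50 CPM). In lung cluster 13 this member had 1 count. Accessibility in other lung clusters was also visible for a member of the group of spleen cluster 2 on chromosome 16, from 46274461 to 46277574, with 75.8 CPM in lung cluster 6 and 36.6 CPM in the clusters matched to none of them. The corresponding value in colon was 3.04 CPM, against 42.2 CPM in the clusters matched to spleen cluster 2.

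The stretches with many members mixed the groups. The 6 members on chromosome 3 between 66305608 and 66406725 summed to 203.8 CPM in spleen cluster 2 (192.0 to 216.1), 136.2 CPM in cluster 1 and 124.8 CPM in cluster 3. In colon they summed to 220.9, 142.2 and 196.7 CPM in the clusters matched to spleen clusters 2, 1 and 3, and to 33.7 CPM in those matched to none of spleen clusters 1 to 4. In lung the order was 61.9, 36.9 and 26.6 CPM, with 4.92 CPM in the clusters matched to none, and in the female liver 318.0, 145.9 and 109.2 CPM, with 15.8 CPM in cluster 2. The sum of these 6 members was thus highest in the clusters matched to spleen cluster 2 in colon, lung and the female liver, although in lung the intervals of the first and second values overlapped (53.1 to 71.7 and 23.7 to 55.0). In spleen the order was partly fixed, as 3 of them had been sorted to spleen cluster 2. The 7 members on chromosome X from 11642311 to 11738370 were more even, with 155.8, 156.8 and 109.9 CPM in spleen clusters 1, 2 and 3 and 179.9, 185.7 and 140.3 CPM in the matched colon clusters. The matched lung clusters had 84.7, 105.5 and 87.9 CPM. In the female liver the cluster matched to spleen cluster 1 was highest, with 190.8, 134.5 and 107.0 CPM, but the intervals overlapped (111.2 to 305.6, 100.4 to 176.3 and 68.5 to 159.1).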

How the data were processed

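Single-cell ATAC-seq of 8 libraries was analysed from the deposited files. Per the submitters' processing notes, Cell Ranger ATAC 1.2.0 was used. The authors called peaks in each library and deposited a list of these peaks, the barcodes and raw counts of cut ends for every peak in every barcode. No source used here names the genome build of the ATAC peaks. The doublet filter, the Harmony correction and the clustering done by the authors in ArchR are not contained in these counts, and a matrix covers only its own library's peaks, so that a member has no value in the organs without a peak. The peak lists differ in length, being shortest for uterus and longest for the female liver, so calls compare only roughly.

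Barcodes with at least 1000 counts were kept, and doublets were not removed except as an alternative. Levels are counts per 1000000 counts in peaks. Poisson intervals are for counts halved to fragments, the 2 ends of which mostly fall in a peak together, and shares have exact binomial intervals. PCR copies and cells of 1 library are not independent replicates. Cells were ranked by members on the odd-numbered chromosomes and measured on the others, and the reverse. Regions with at least 50 counts entered counts of members past 2-fold. Clustering used TF-IDF weighting, 30 components and the Leiden method at resolution 0.8 (scikit-learn 1.9.0, leidenalg 0.10.2, igraph 0.11.9, numpy 2.4.6, scipy 1.17.1, Python 3.11.15). Profiles added 5 expected counts to each level and needed 100 counts in both libraries (20 in the female liver). A female liver peak spanning several regions gave its counts to the last of them. Merging was checked against bedtools 2.31.1, and the ranking and clustering were tested on simulated data.

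Regions named were the 10 members with the highest minimum level, the 5 densest stretches of 100 kb counted by midpoints, the members with the highest and lowest fold among those with at least 200 counts, of which a few are given, and those at the edge of the rule. The members and all lists were chosen with earlier results of these data known. The value of 1.5%, the matching to spleen clusters and the groups built on it were chosen after the data were seen. The marker and motif analyses were not run, since they need the build of the peaks.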

Additional observations from a re-analysis of the deposited data

How the results depend on the processing

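Limits that bear on the members are the single library per organ, the uneven length of the peak lists, the missing counts in organs without a peak and the choice of the liver library. Of 43 alternative values, 21 stayed within their limits and 22 moved. Among them, no held-out fold fell to 1 or below. Counts and shares have no fold of 1 to cross, and the highest over the lowest cluster level cannot fall below 1. The number of members was 3001 at an overlap of at least 100 bp, 2514 with peaks counted in at least 1% of cells and 3014 with peaks up to 200 bp apart merged. Leaving out the male liver gave 5704, and requiring the female liver to lack a peak gave 348. The share with a peak in the female liver was 85.9% with only its peaks that had a count. The held-out fold in the richest cells moved in colon from 1.52 to 1.60 with cells thinned to 1000 counts, 1.58 with the top 20% of cells, 1.55 without likely doublets and 1.54 with regions of 1 peak per library. In lung it moved from 2.90 to 2.74, 3.25, 2.94 and 2.95 under the same settings. In spleen it moved from 1.22 to 1.25 at a minimum of 2000 counts and 1.16 with thinned cells. With cells above 1.5%, an alternative chosen after seeing the data, it was 3.29 in colon, 3.25 in lung and 1.43 in spleen; in colon this setting alone moved the fold by more than 1.5 times, because the group of remaining cells differs. Thinning moved the share of members past 2-fold to 29.5% in colon and to 50.4% in lung. The minimum of 50 counts was applied after thinning, so fewer members were tested and these shares are not over the same members as before. The share over all regions was not computed for thinned cells. The highest over the lowest cluster level was 4.48 in lung and 1.60 in spleen at a minimum of 2000 counts, and 1.53 in spleen at resolutions 0.4 and 1.2. No paired analysis was possible because each organ of the rule had 1 library.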
